A study of Mus musculus with 6 samples.

Results

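The genes described here encode the proteins of mitochondrial respiration, from both genomes of the cell. They were chosen by name: every row of the count table whose symbol begins with mt-, Nduf, Sdh followed by a to d, Uqcr, Atp5, or Cox followed by 4 to 8. Of 18560 genes measured, 108 met this rule. Of these, 13 are encoded by the mitochondrial DNA and 95 by the nucleus. The nuclear members comprised 45 complex I genes (37 subunits, 7 assembly factors and Ndufa4l2), 8 complex II genes, 8 complex III genes, 17 complex IV genes and 17 complex V genes. The data were used to ask how the transcripts of each genome were spread over cell clusters, which isoforms were restricted to few of them, and whether odour deprivation or training moved them.

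Respiration passes electrons from nutrients to oxygen through complexes I to IV of the inner mitochondrial membrane, and complex V uses the resulting proton gradient to make ATP. The core subunits of complexes I, III, IV and V are translated inside the mitochondrion from its own DNA, whereas the remaining subunits, and all of complex II, are made from nuclear genes and imported. Neurons depend heavily on this pathway for the energy that ion pumping and synaptic transmission consume, and mature red blood cells, which lack mitochondria, do without it.

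The study profiled single cells of the olfactory bulb of C57BL/6NJ mice aged 14 weeks by droplet sequencing, in which each captured transcript carries a unique molecular identifier (UMI). There were 6 libraries in 3 groups of 2: control (no manipulation by the labels, while the study's text speaks both of naive mice and of the open side of occluded mice), naris occluded (one nostril closed, which deprives the bulb on that side of odour input) and trained (learning to discriminate odorants), the last 2 after 6 weeks of deprivation or training. By the study's methods the trained mice were also deprived of water and worked for a water reward. This cannot be told apart from odour learning here. Each library pooled animals, replicate 1 males and replicate 2 females, so the replicate number and the sex of the pool cannot be told apart. Per the labels, brains were taken out with surrounding tissue, and the libraries hold some cells of the neighbouring olfactory epithelium.

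The deposited annotation placed 51426 of 52549 barcodes in 38 clusters of the whole bulb, and 21746 of them again in 18 neuronal clusters. Libraries held 6705 to 10570 annotated cells, 11841160 to 17065083 UMIs and a median of 1028 to 1723.5 UMIs per cell. Trained replicate 1 stood apart as the shallowest, with a median of 1028 UMIs per cell where the other 5 libraries had at least 1344.5, and naris occluded replicate 1 as the deepest, with 1723.5 where the others had at most 1414. Between libraries, 1461 barcode sequences recurred, in 2956 annotated cells. Clusters carry the names of the deposited annotation, whose numbers differ in part from the study's text: by their cell counts, OEC3 here is the study's OEC4, Astro3 its Astro2, MicroG1 its MicroG2, Mes1 its Mes2 and Mes2 its Mes1, and the whole-bulb N clusters are numbered differently too. The names matched their markers: Omp, an olfactory sensory neuron gene, was highest in the cluster n01-OSNs (731 counts per 1000000 UMIs, CPM), Pdgfrb, a pericyte gene, in Mural2 (1251 CPM), and Hbb-bs, a haemoglobin gene, in RBCs (385895 CPM).

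The mitochondrial genome supplied most of the respiration transcripts in every library, with 27.3 to 34.95 nuclear-encoded UMIs for every 100 mitochondrial-encoded ones. The mitochondrial-encoded share of all UMIs was 11.9% and 11.6% in the control libraries (replicates 1 and 2), 10.2% and 9.76% in naris occluded, and 13.4% and 10.51% in trained. The nuclear-encoded share was 3.58% and 3.47% in control, 3.30% and 3.41% in naris occluded, and 3.65% and 3.16% in trained. For the mitochondrial share the naris occluded libraries lay below both controls, and the trained libraries lay on either side of them. For the nuclear share both naris occluded libraries again lay below both controls. The mitochondrial share differed with depth, as described below, and in cells with at least 1000 UMIs it was 9.72% ± 0.259 (SD, n = 2) in control, 8.86% ± 0.349 in naris occluded and 9.60% ± 1.08 in trained, a smaller gap between control and naris occluded. With 2 libraries a group an exact permutation test cannot go below p = 0.333, so no p is given for these shares.

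Within the mitochondrial genome the transcripts were very uneven. mt-Atp6, a subunit of the ATP synthase (RefSeq GRCm38.p6, chromosome MT, 7927 to 8607), supplied 22.3% of mitochondrial-encoded UMIs, mt-Co3 (8607 to 9390) 20.8% and mt-Co1 (5328 to 6872) 14.7%, the last pair being catalytic-core subunits of cytochrome c oxidase. mt-Cytb (14145 to 15288), the cytochrome b of complex III, supplied 11.96%, and among the complex I genes mt-Nd1 (2751 to 3707) supplied 10.2%. The least counted were mt-Atp8 (7766 to 7969) with 0.088% and mt-Nd6 (13552 to 14070), the only member transcribed from the light strand, with 0.082%. Each UMI stands for 1 captured transcript, tagged near its 3' end, so these are shares of molecules and were not divided by length. mt-Atp8 overlaps mt-Atp6, mt-Nd4l overlaps mt-Nd4 and mt-Nd5 overlaps mt-Nd6, and members of the first pairs lie on one shared transcript, so the level of mt-Atp8, mt-Nd4l and mt-Nd6 is uncertain.

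The order differed among clusters. In n01-OSNs mt-Co1 (71881 ± 3084 CPM, SD over 6 libraries) and mt-Co3 (70992 ± 3095) were within their spread of each other, and mt-Co2 (36118 ± 3108) was above mt-Nd1 (31221 ± 1845). In OEC1, OEC2 and OEC4 the mean of mt-Co3 was above that of mt-Atp6, by less than the spread. Across the 38 clusters mt-Atp6 ranged only from 21.2% ± 0.88 (SD, n = 6 libraries) of mitochondrial-encoded UMIs in Mes1, a mesenchymal cluster, to 24.8% ± 1.42 in Macrophage. Several departures were in N5, a whole-bulb cluster of which 84.2% of cells fell in n01-OSNs. There mt-Co1 was at its highest, 17.6% ± 1.21 against a median of 14.5% over clusters, and mt-Nd1 and mt-Co3 were at their lowest, 7.69% ± 0.46 and 17.5% ± 1.26.

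Among nuclear members, cytochrome c oxidase subunits led. Cox8a had 1583 CPM over all cells, Cox4i1 1427, Cox7c 1297 and Cox6c 1268, each a small or regulatory subunit that surrounds the mitochondrial-encoded core. In complex I, Ndufa4 (923 CPM, a subunit now placed with complex IV) and Ndufa13 (759) led, in complex II Sdhb (205) and Sdha, in complex III Uqcr11 (786) and Uqcrh (628), and in complex V Atp5l (786) and Atp5j2 (767). Complex II, the only complex that also belongs to the citric acid cycle, was the least abundant, with 506 CPM summed over its 4 subunits. The 11 assembly factors, which build complexes I and II without staying in them, ranged from 12.4 CPM (Ndufaf6) to 74.8 (Sdhaf4).

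Some nuclear members shared promoter letters bound by the factors known to drive respiratory genes, NRF1 and GABP. Of the 95 nuclear members, 80 had a promoter in the RefSeq table (GRCm38.p6, 250 bases before to 50 after a start site). The NRF1 motif, GCGCA and GCGC with any base N between them, searched on both strands, was in 21 of the 80 (26.2%), against 9.3% of 13087 measured genes and 5.2% of all 27025 genes with a promoter. The ETS core CCGGAAG that GABP binds, which does not overlap the former in its letters, was in 20 (25.0%), against 16.1% and 9.9%. Both were in 5 members, Atp5k, Atp5h, Cox6a1, Sdhd and Sdhaf3 (6.2%, against 2.1% of measured genes). A match is a description of letters and not evidence of binding. The promoters of the 3 most abundant of these 5 are shown 5′ to 3′ in the direction of the gene, with the motifs of either strand in capitals: Atp5k, subunit e of the ATP synthase (chr5:108434350-108434649, minus strand), Atp5h, its subunit d (chr11:115419870-115420169, minus strand), and Cox6a1, the widely expressed subunit 6A of cytochrome c oxidase (chr5:115348909-115349208, minus strand).
Atp5k: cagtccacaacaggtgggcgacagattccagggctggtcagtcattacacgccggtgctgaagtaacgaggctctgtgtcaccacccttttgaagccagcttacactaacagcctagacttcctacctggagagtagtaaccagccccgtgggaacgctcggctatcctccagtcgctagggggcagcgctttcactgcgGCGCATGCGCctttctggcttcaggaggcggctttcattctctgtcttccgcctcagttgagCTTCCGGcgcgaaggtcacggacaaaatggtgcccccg
Atp5h: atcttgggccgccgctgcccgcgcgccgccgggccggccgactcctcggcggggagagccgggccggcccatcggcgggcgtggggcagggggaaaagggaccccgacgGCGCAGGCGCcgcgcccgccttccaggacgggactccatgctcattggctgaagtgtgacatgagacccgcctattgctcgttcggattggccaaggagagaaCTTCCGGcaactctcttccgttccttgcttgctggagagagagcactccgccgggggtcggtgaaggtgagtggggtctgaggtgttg
Cox6a1: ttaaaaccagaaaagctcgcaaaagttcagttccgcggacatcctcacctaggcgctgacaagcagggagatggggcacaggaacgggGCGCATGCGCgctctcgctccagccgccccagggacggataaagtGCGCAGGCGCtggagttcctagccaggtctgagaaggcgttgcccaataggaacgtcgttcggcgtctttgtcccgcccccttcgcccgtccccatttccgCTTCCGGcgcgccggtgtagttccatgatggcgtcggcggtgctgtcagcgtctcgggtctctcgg
In each, the ETS core lay on the strand opposite to the one shown and downstream of the NRF1 motif, and Cox6a1 held a pair of NRF1 motifs.

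The share of each genome differed widely among clusters, and the genomes did not rank the clusters alike. Because clusters were formed on expression, these are descriptions without a test, given as mean ± SD over the 6 libraries. The nuclear share is from here on given as percent of the UMIs not from mitochondrial-encoded genes, called the other UMIs, so that a high mitochondrial share does not lower it.

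Olfactory sensory neurons were the highest in both. n01-OSNs held 40.8% ± 1.61 mitochondrial-encoded UMIs and 8.12% ± 0.228 nuclear-encoded among the other UMIs. n13-AstrocyteLike was second among the 18 neuronal clusters in both, with 29.95% ± 1.61 and 7.30% ± 0.521. The granule cells n14-GC-7 were close to it in the mitochondrial share (29.88% ± 1.503) but ranked 10 of 18 in the nuclear share (5.41% ± 0.373). Red blood cells were the lowest in both, with 2.95% ± 0.713 and 0.725% ± 0.17.

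Elsewhere the genomes parted. The granule cells n12-GC-6 had the lowest mitochondrial share of the 18 neuronal clusters (6.45% ± 0.47) together with the third highest nuclear share (6.57% ± 0.301), so that they held 95.9 ± 9.19 nuclear-encoded UMIs per 100 mitochondrial-encoded, the highest ratio among those 18 clusters. The ratio in n01-OSNs was 11.8 ± 0.751, the lowest. The n12-GC-6 cells were also the deepest of the 18 neuronal clusters, with a median of 3533 UMIs, and the mitochondrial share was lower in deeper clusters, as described below. Among cells with at least 1000 UMIs, which all n12-GC-6 cells had, n05-PGC-2 had a mitochondrial share of 6.26% ± 0.912, within the spread of n12-GC-6. The granule cells n07-GC-2 and the n06-Transition cells had high mitochondrial shares (17.2% ± 0.893 and 15.6% ± 1.16) and low nuclear ones (3.26% ± 0.324 and 3.21% ± 0.376). Mitral and tufted cells are the output neurons of the bulb. Their cluster n15-M/TC-1 had the lowest nuclear share of all neuronal clusters, 2.06% ± 0.236, with 9.57% ± 1.07 mitochondrial, although it held only 90 cells. The other mitral and tufted clusters did not share this, with nuclear shares of 5.76% ± 1.24 in n16-M/TC-2 (116 cells) and 4.62% ± 0.315 in n17-M/TC-3 (927 cells). Outside neurons, the MicroG1 microglia were low in both (6.20% ± 0.508 and 2.26% ± 0.102), and Astro3 was high in both (23.0% ± 1.79 and 6.13% ± 0.659).

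**Figure D1:**
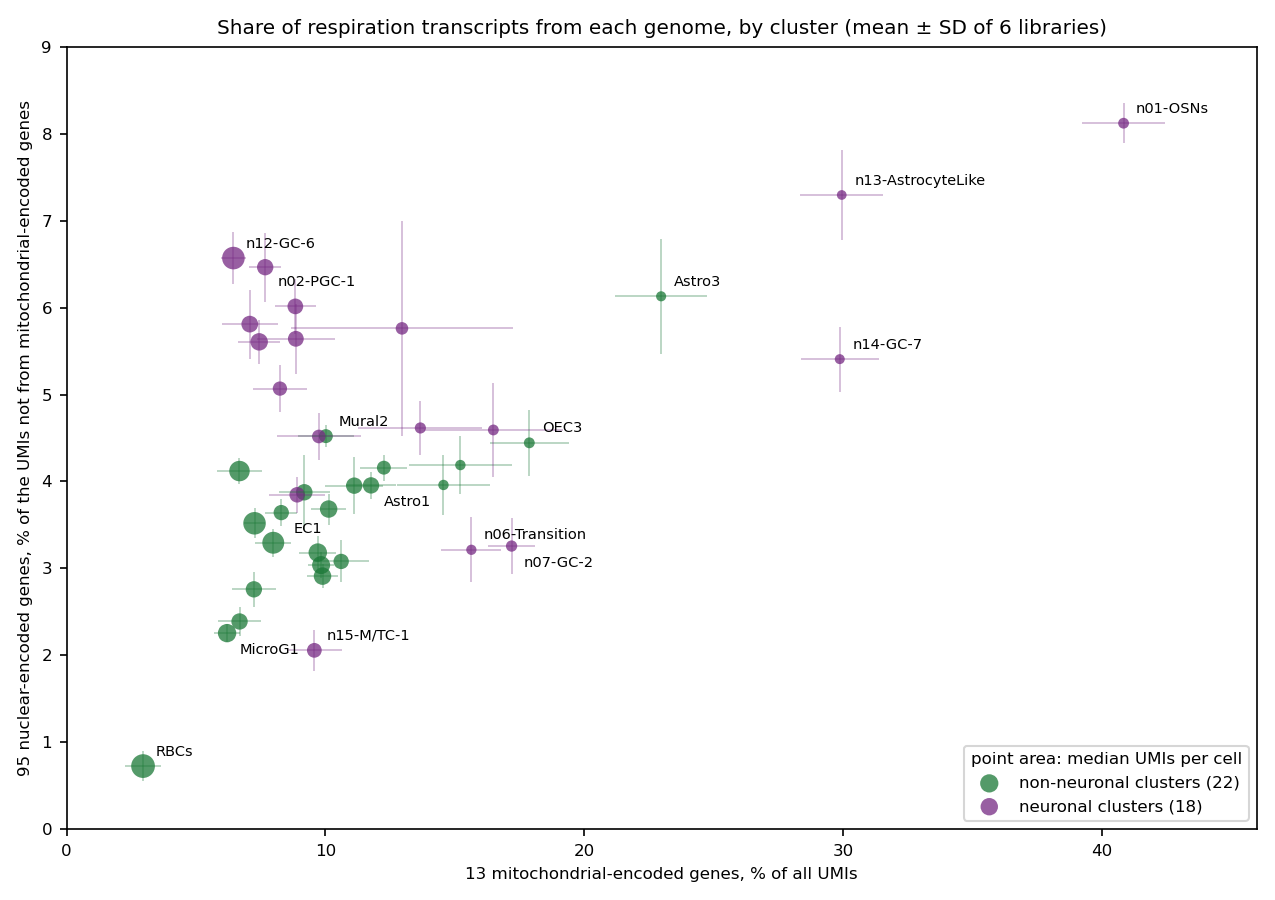
Each point is 1 of 22 non-neuronal or 18 neuronal clusters, with the mitochondrial-encoded share of all UMIs (percent, x axis) against the nuclear-encoded share of the other UMIs (percent, y axis), bars giving the SD of 6 libraries and point area the median UMIs per cell. n01-OSNs sit at the top right (40.8% and 8.12%), RBCs at the bottom left (2.95% and 0.725%), and n12-GC-6 at the top left (6.45% and 6.57%).

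Over the 18 neuronal clusters the shares of the genomes had a Spearman rho of -0.15 (Pearson's r 0.389), and over the 38 whole-bulb clusters 0.412 (0.651). These points share libraries and differ in depth. The mitochondrial share was lower in clusters with more UMIs per cell, with a rho of -0.944 over the neuronal clusters and -0.825 over the whole-bulb clusters, while the nuclear share had 0.183 and -0.427. The nuclear share followed other mitochondrial and energy genes: over the 38 clusters its rho was 0.784 with the 16 citric acid cycle genes, 0.65 with the 77 mitochondrial ribosome genes and 0.686 with the 17 glycolysis genes.

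The mitochondrial share also differed with depth inside clusters. Of 32 clusters with at least 50 cells on each side of 1000 UMIs, the mitochondrial share was higher in the shallow cells in 30, whereas the nuclear share was higher in the shallow cells in 17. In Astro1, a main astrocyte cluster, it was 18.8% ± 1.43 in cells under 1000 UMIs and 11.2% ± 0.919 in deeper ones. In OPC, oligodendrocyte precursors, it was 18.9% ± 4.80 and 6.07% ± 0.591. Sensory neurons went the other way: n01-OSNs held 38.1% ± 1.48 in the shallow cells and 43.9% ± 1.61 in the deep cells. Their nuclear share was 8.10% ± 0.18 and 8.24% ± 0.462, a difference within the spread. Among deep cells alone, the genomes had a rho of 0.067 over the 32 clusters, and among shallow cells 0.716.

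**Figure D2:**
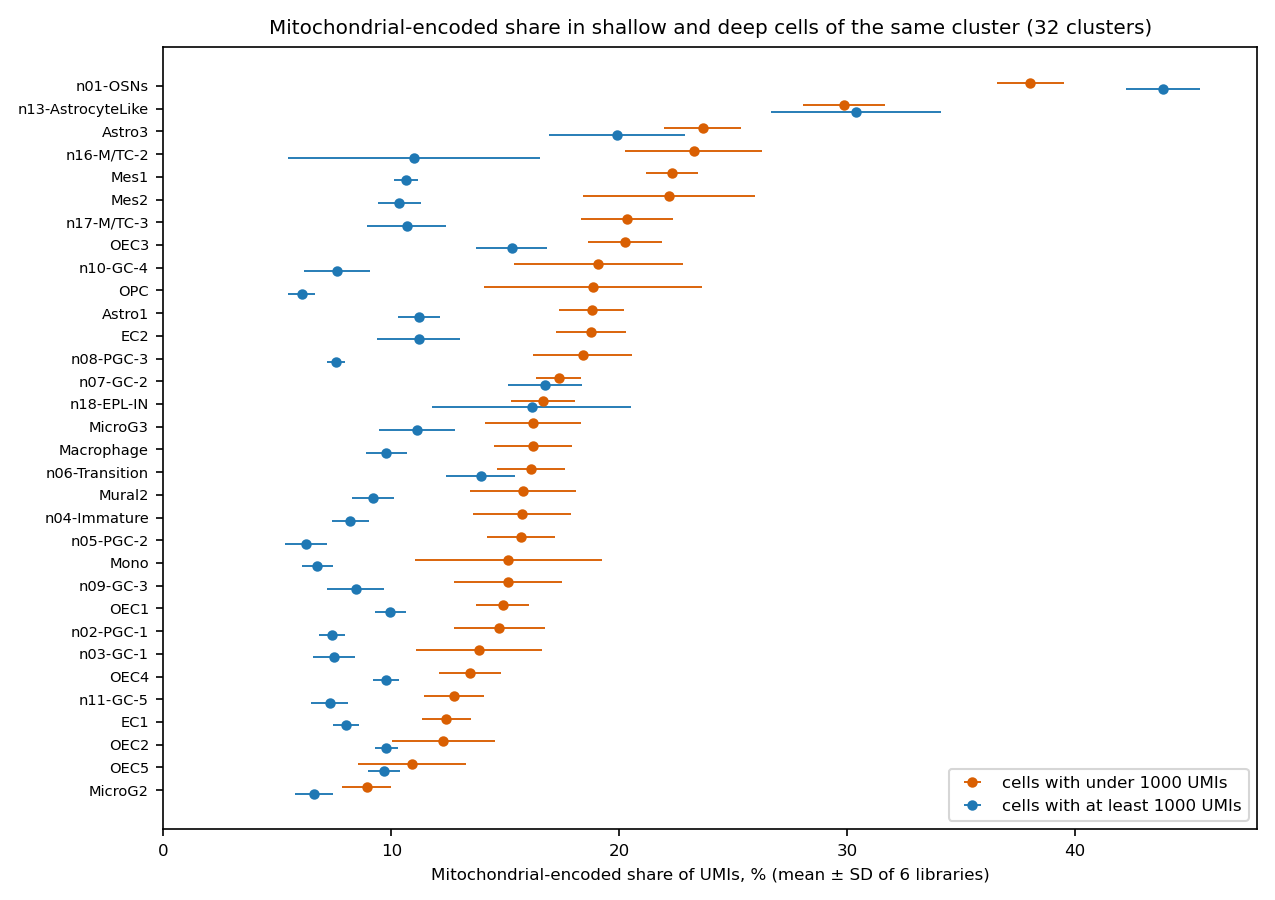
Mitochondrial-encoded share of UMIs (percent, x axis) in cells under 1000 UMIs (orange) and in cells with at least 1000 (blue) of 32 clusters (y axis), as mean ± SD of 6 libraries. The orange points lie to the right in 30 of the 32 clusters, and n01-OSNs, with 38.1% shallow and 43.9% deep, is one of the exceptions.

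In sensory neurons the mix of nuclear members was unlike that of other neurons. Complex IV made up 37.9% ± 1.03 of nuclear-encoded UMIs in n01-OSNs against a median of 28.9% over the 18 neuronal clusters, complex I 29.96% ± 0.585 against 36.7%, and complex II 0.708% ± 0.071 against 1.88%. Of the 79 nuclear members with a median of at least 50 CPM over those clusters, 9 of 11 in complex IV took a larger part of the nuclear-encoded UMIs in n01-OSNs than in the median cluster, but only 6 of 40 in complex I, 0 of 5 in complex II, 3 of 8 in complex III and 5 of 15 in complex V.

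The departures were sizeable for single subunits. Ndufv3, a small accessory subunit of complex I, took 2.34 times its median part (1038 ± 156 CPM), Ndufa1 2.16 times (1042 ± 116), and Atp5k and Atp5h, whose promoters are printed above, 1.84 and 1.68 times (1914 ± 293 and 1522 ± 145). Ndufs1, the large iron-sulfur subunit of complex I, took 0.22 times its median part (17.2 ± 12.5 CPM), Atp5f1, the peripheral-stalk subunit b, 0.28 times (98.5 ± 32.7), and Sdhb, the iron-sulfur subunit of complex II, 0.34 times (102 ± 33.2). The subunits named as low had their smallest part of the 18 clusters there, and those named as high their largest.

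Isoform pairs gave the sharpest restriction. Ndufa4l2, a paralog of Ndufa4 induced by hypoxia and known as a pericyte gene, had 1974 ± 321 CPM in Mural2 and 1023 ± 129 in Mural1, against a median of 2.89 over the 38 clusters. By library its level in Mural2 was 1986 and 2206 in control, 1781 and 2384 in naris occluded and 1471 and 2017 in trained. The lowest of these, in trained replicate 1, was still far above the next cluster, EC2, an endothelial cluster at 46.1 ± 14.6. Ndufa4 itself, at 420 ± 97.2 in Mural2 and 545 ± 59.2 in Mural1, was lower there than its median of 912 over the 38 clusters, so that in mural cells the paralog outnumbered it.

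Cox4i2, the isoform of cytochrome c oxidase subunit 4 linked to oxygen sensing, had the same restriction at a lower level. It had 814 ± 201 CPM in Mural2 and 336 ± 169 in Mural1, against a median of 1.86 over the 38 clusters. In Mural2 the libraries had 729 and 889 in control, 1011 and 1046 in naris occluded, and 535 and 674 in trained. The groups did not overlap in Mural2, in the order trained, control, naris occluded, and in Mural1 they did. No test was run in these clusters, which held 769 and 158 cells. Unlike Ndufa4, Cox4i1 was kept, with 1359 ± 186 in Mural2, near its median of 1411.

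**Figure D3:**
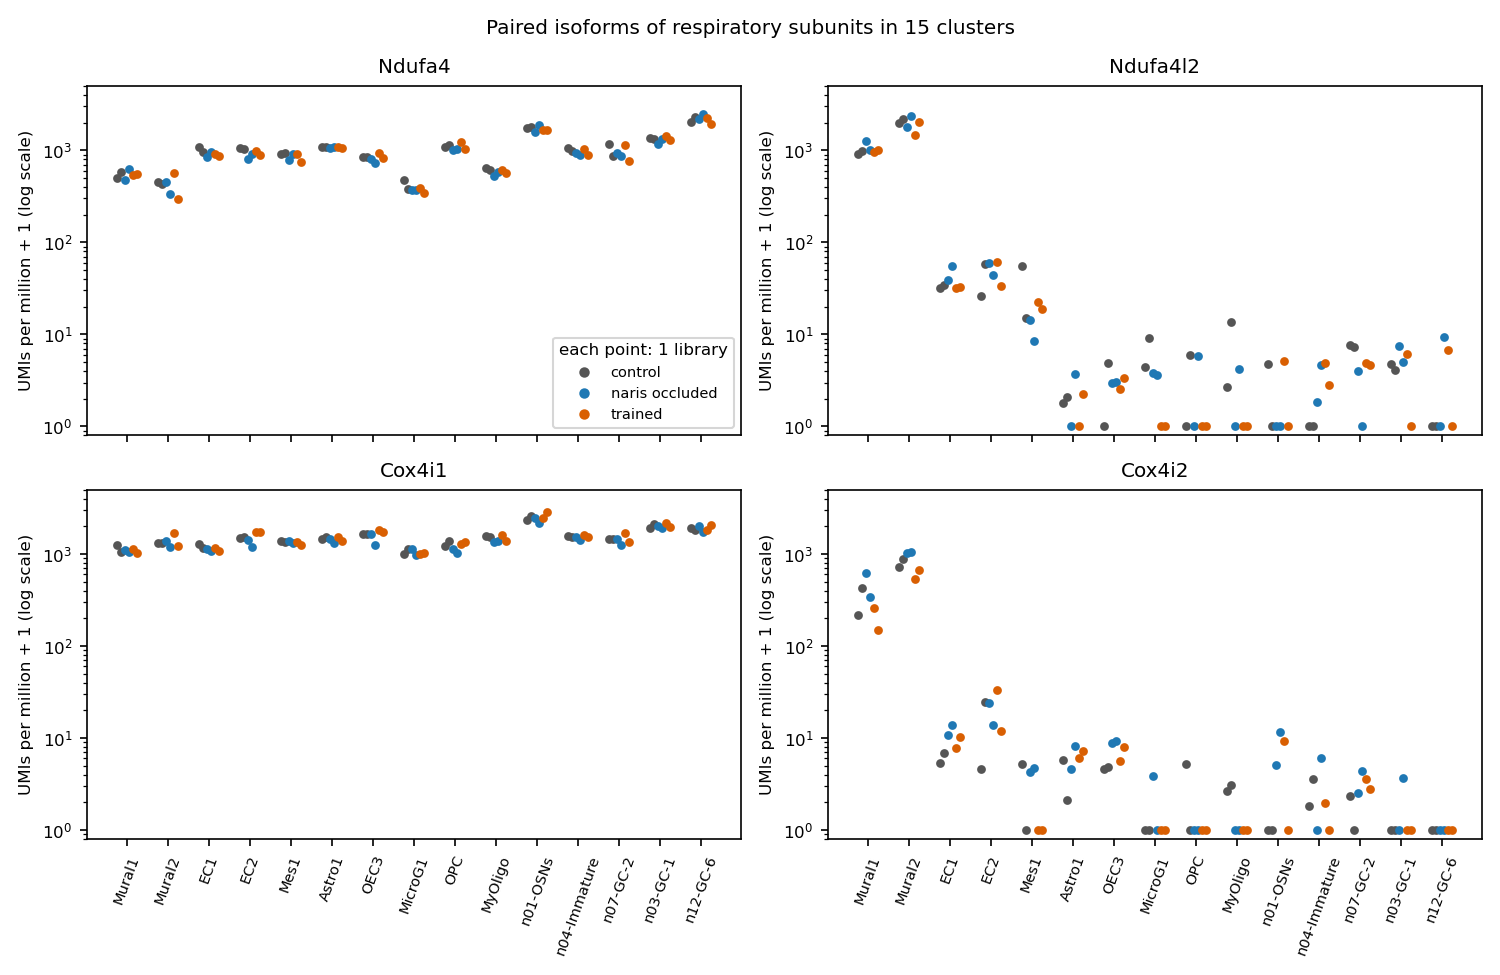
Level of Ndufa4, Ndufa4l2, Cox4i1 and Cox4i2 in CPM plus 1 (y axis, log scale) in 15 clusters (x axis), each point being 1 library coloured by group. Ndufa4l2 and Cox4i2 stand above 100 in the Mural1 and Mural2 clusters and below it elsewhere, while Ndufa4 and Cox4i1 are present in all 15.

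Other isoforms were restricted more weakly or too sparse to place. Cox6b2, the alternative subunit 6B, was highest in the mesenchymal clusters, with 212 ± 64.7 CPM in Mes2 and 179 ± 19.2 in Mes1 against a median of 22.4. Cox7a1, a heart and muscle isoform of subunit 7A, had 65.8 ± 21 in Mes1 and 64.5 ± 28.5 in n01-OSNs, values that do not differ beyond their spread. Cox6a2, the muscle isoform of subunit 6A, had 37.8 ± 26.6 in the n18-EPL-IN interneurons and 32.4 ± 23.1 in n05-PGC-2, with 6 and 29 UMIs behind these means. In microglia it had 33.5 ± 27.5 in MicroG3, 25.9 ± 19.97 in MicroG1 and 19.7 ± 11.6 in MicroG2, on 25, 54 and 83 UMIs. Cox8b was counted in Astro2 in trained replicate 1 only, where it had 143 CPM, and Cox7b2 stayed under 5 in every whole-bulb cluster. The 3 genes for the identical mature subunit c of the ATP synthase were shared out differently: in n12-GC-6 Atp5g1 led with 1267 ± 111, before Atp5g3 with 801 ± 87.4 and Atp5g2 with 545 ± 110, whereas in MicroG1 Atp5g2 led with 372 ± 24.8.

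The next question was whether deprivation or training moved these genes. Counts were summed per library in 8 clusters with at least 105 cells in every library (n03-GC-1, n07-GC-2, n04-Immature, n01-OSNs, Astro1, OEC3, MicroG1 and EC1), and each of 3 contrasts was tested by edgeR's quasi-likelihood test over all genes of a cluster, with Benjamini-Hochberg adjustment and a threshold of 0.05. Of the 108 members, 105 passed the filter on low counts in at least 1 cluster, and Cox4i2, Cox7b2 and Cox8b in none.

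The shares of both genomes were lower in the naris occluded libraries in most whole-bulb clusters. In 26 of the 38 whole-bulb clusters both naris occluded libraries had a lower mitochondrial share than both controls, and in 24 both had a lower nuclear share. Only N5 and N11 had a higher mitochondrial share in both, and no whole-bulb cluster a higher nuclear share in both. Clusters come from the same 6 libraries, so their number is not a number of replicates. Among the 18 neuronal clusters, the mitochondrial share was lower in both naris occluded libraries in 12 and higher in both in n01-OSNs and n15-M/TC-1, and the nuclear share was lower in 8 and higher in n15-M/TC-1. In n07-GC-2 the mitochondrial share was 18.5% and 17.8% in control, 16.6% and 16.0% in naris occluded, and 17.5% and 16.8% in trained. In OEC3, ensheathing glia, it was 18.4% and 18.003% in control, 16.7% and 15.5% in naris occluded, and 19.6% and 19.1% in trained. The groups did not overlap in either cluster, with naris occluded lowest in both. OEC3 was the shallowest ensheathing cluster, with a median of 817 UMIs per cell where OEC1, OEC2, OEC4 and OEC5 had 2108 to 2352. Each of these also had a lower mitochondrial share in both naris occluded libraries than in both controls. The 4 sensory neuron markers, of the cells with the highest mitochondrial share, also summed lower in n07-GC-2, with 812 and 853 CPM in control, 610 and 672 in naris occluded, and 1062 and 597 in trained. Their sum was lower without overlap between control and naris occluded in Astro1 (414 and 402 against 333 and 310) and EC1 (461 and 399 against 397 and 358) too, and overlapped in OEC3, n03-GC-1, n04-Immature and MicroG1. The 3 nuclear RNAs, which include Malat1, summed to 69193 and 73878 CPM in control n07-GC-2 and 63742 and 60576 in naris occluded, and in Astro1 to 95602 and 95544 against 85578 and 84974.

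Of 18 lists summed in each cluster (16 of cell type markers, the nuclear RNAs and the genes induced by dissociation), 3 to 9 differed without overlap between naris occluded and control. Such a separation was common with 2 libraries a group: over all gene tests of this contrast, 17.2% were higher and 16.8% lower without overlap. In n03-GC-1 the 2 immature markers were higher in naris occluded (390 and 354 CPM against 237 and 294) and the 3 granule and periglomerular markers lower (872 and 752 against 988 and 942). In n04-Immature the 4 ensheathing cell markers (539 and 643 against 434 and 374) and the 3 red blood cell markers (402 and 205 against 181 and 75.6) were higher. In OEC3 the granule and periglomerular markers (288 and 185 against 335 and 309) and the 4 mitral and tufted markers (48.9 and 43.5 against 76.6 and 81.1) were lower, as were the general neuron and precursor markers. The ensheathing cell markers of OEC3 itself were higher (16270 and 17663 against 15226 and 14287), as were its astrocyte (2080 and 1992 against 1782 and 1706), endothelium (507 and 643 against 447 and 459), monocyte and macrophage markers, the last pair under 25 CPM in every control and naris occluded library. In EC1 5 lists were higher and 3 lower, with the dissociation genes among the higher (2059 and 2898 against 1779 and 1916). In MicroG1 1 was higher and 4 lower. The lower ones included the ensheathing cell markers (397 and 444 against 737 and 976) and the nuclear RNAs (29409 and 29724 against 31262 and 30728). The part of any of these in the shares was not tested.

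**Figure D4:**
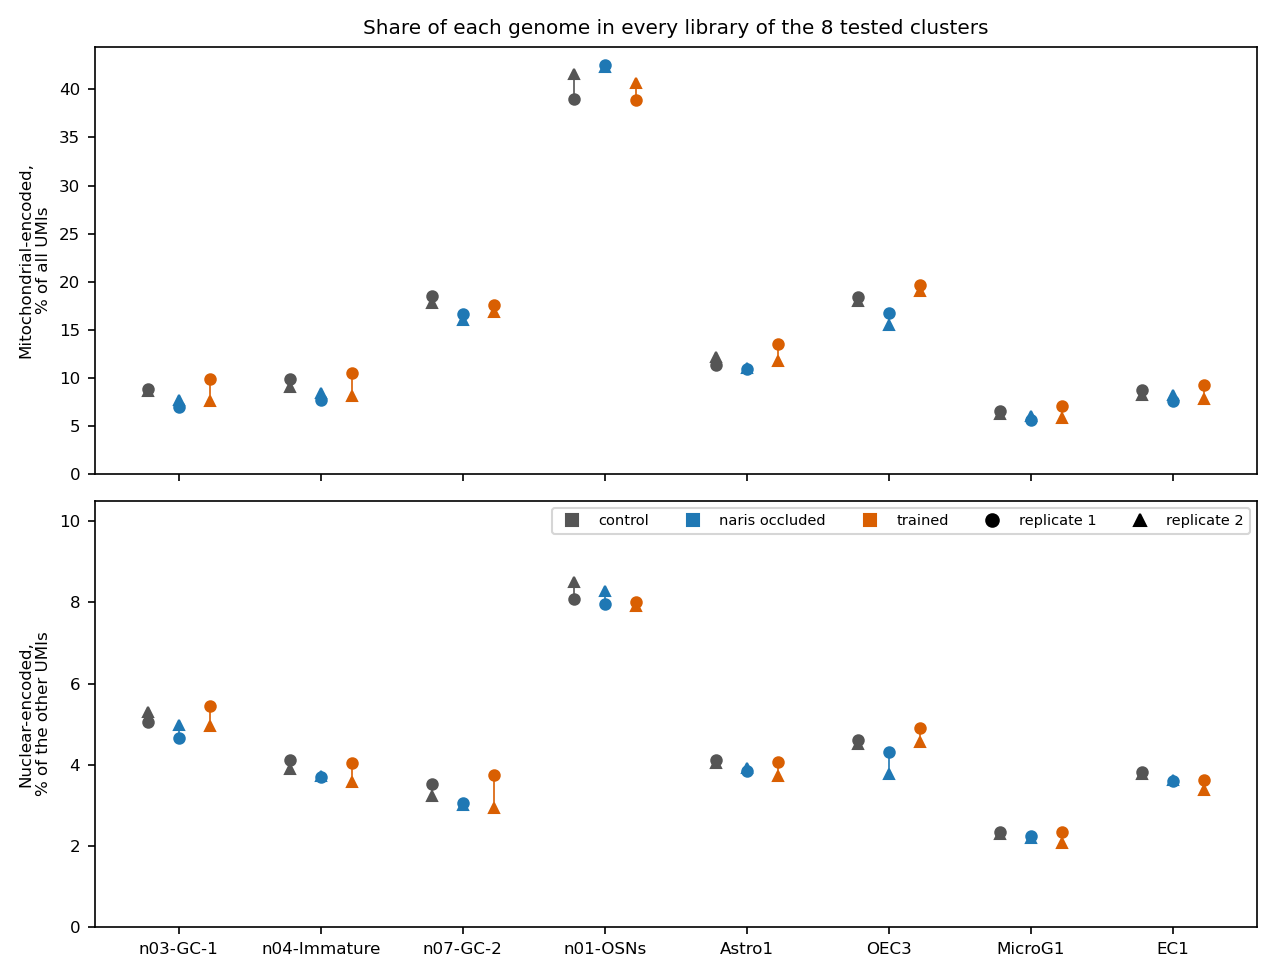
Mitochondrial-encoded share of all UMIs (top, percent) and nuclear-encoded share of the other UMIs (bottom, percent) in the 8 tested clusters, each marker being 1 library, circles replicate 1 and triangles replicate 2. Naris occluded libraries lie below both controls in most clusters of the top panel but above them in n01-OSNs (42.6% and 42.3%).

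No single member passed the test between naris occluded and control. Of 104 tests of mitochondrial-encoded members (13 genes in 8 clusters) edgeR called 0 and of 679 tests of nuclear-encoded members 0, where 0.0481% of all 56078 tests were called, and DESeq2 called 0 in both. At an unadjusted p under 0.05 there were 23 (22.1%) and 22 (3.2%), against 4.75% of all tests, so only the mitochondrial-encoded percentage was above that of all tests. Tests of members are not independent, as they share the libraries and, for the mitochondrial-encoded ones, a genome. The counts of tests here and in the other contrasts are therefore not counts of replicates. Direction was less even than over all genes: 83 of the 104 and 485 of the 679 were lower in naris occluded (79.8% and 71.4%, against 49.9% of all tests), with median log2 differences of -0.14 and -0.08 against 0.001. Lower in both naris occluded libraries than in both controls were 52 of the 104 mitochondrial-encoded tests and 250 of the 679 nuclear-encoded ones (36.8%), against 16.8% of all tests.

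Of the 13 mitochondrial-encoded genes, mt-Atp6, mt-Co1, mt-Co2, mt-Co3, mt-Cytb, mt-Nd1, mt-Nd2, mt-Nd3 and mt-Nd4 were each lower in 7 of 8 clusters, all but n01-OSNs. The lowest medians over clusters were those of mt-Co1 (-0.25), mt-Nd1 (-0.23) and mt-Co3 (-0.22). mt-Co1 differed by -0.36 in n03-GC-1, -0.34 in n04-Immature and -0.31 in n07-GC-2 on the log2 scale, and by 0.04 in n01-OSNs. The nuclear test with the lowest p was Uqcrh, the hinge protein of complex III, in OEC3. It had 707 and 637 normalised CPM in control, 515 and 452 in naris occluded, and 708 and 661 in trained, so the naris occluded libraries lay below all others. Its log2 difference from control was -0.48 ± 0.15 (SE), which did not pass (adjusted p = 0.8, edgeR). Next came Uqcrfs1, the Rieske iron-sulfur protein, in n07-GC-2, with 131 and 129 in control against 82.6 and 76.4 in naris occluded (log2 difference -0.70 ± 0.22, adjusted p = 0.898). Cox6a2 in MicroG1 went the opposite way, with 22.2 and 14.7 in control, 44.8 and 64.6 in naris occluded, and 13.4 and 8.4 in trained (log2 difference 1.58 ± 0.50, adjusted p = 0.869).

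Sensory neurons stood against the other tested clusters. In n01-OSNs the mitochondrial share was 39.0% and 41.6% in control, 42.6% and 42.3% in naris occluded, and 38.9% and 40.7% in trained, so both naris occluded libraries were above the other 4. Of the 18 lists, 7 differed there without overlap between naris occluded and control, where 19.2% of all genes tested were higher and 18.2% lower without overlap. The summed level of the 4 sensory neuron markers was 18521 and 20006 CPM in control, 20279 and 26060 in naris occluded, and 14480 and 17852 in trained, again highest in naris occluded without overlap. The 3 granule and periglomerular markers summed to 416 and 444 CPM in control, 336 and 192 in naris occluded, and 544 and 331 in trained, where both naris occluded libraries were below both controls. The ensheathing cell markers (613 and 650 in naris occluded against 880 and 751 in control), the mitral and tufted markers (78.7 and 95.9 against 160 and 109) and the 2 general neuron markers (199 and 117 against 290 and 227) were lower too. The 4 astrocyte markers (563 and 714 against 531 and 534) and the genes induced by dissociation (162 and 160 against 141 and 147) were higher. The part of any of these in the mitochondrial share was not tested. On the normalised scale all 13 mitochondrial-encoded genes had a positive log2 difference from control there. The median was 0.24, which was 0.155 by DESeq2 and 0.159 in cells with at least 1000 UMIs. The direction depended on the scaling: by plain UMI totals the mean levels of mt-Co1, mt-Co3 and mt-Nd1 were slightly lower in naris occluded. In one fit of both clusters with a term for each library, the effect of occlusion in n01-OSNs exceeded that in each of the 7 other clusters for all 13 genes, but none of these 91 differences passed (smallest adjusted p = 0.997, edgeR), 2 had an unadjusted p under 0.05 (3.71% of all tests did), and 0% of all tests were called. The nuclear members did not share the opposite direction: in n01-OSNs 47 of 75 were lower in naris occluded.

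**Figure D5:**
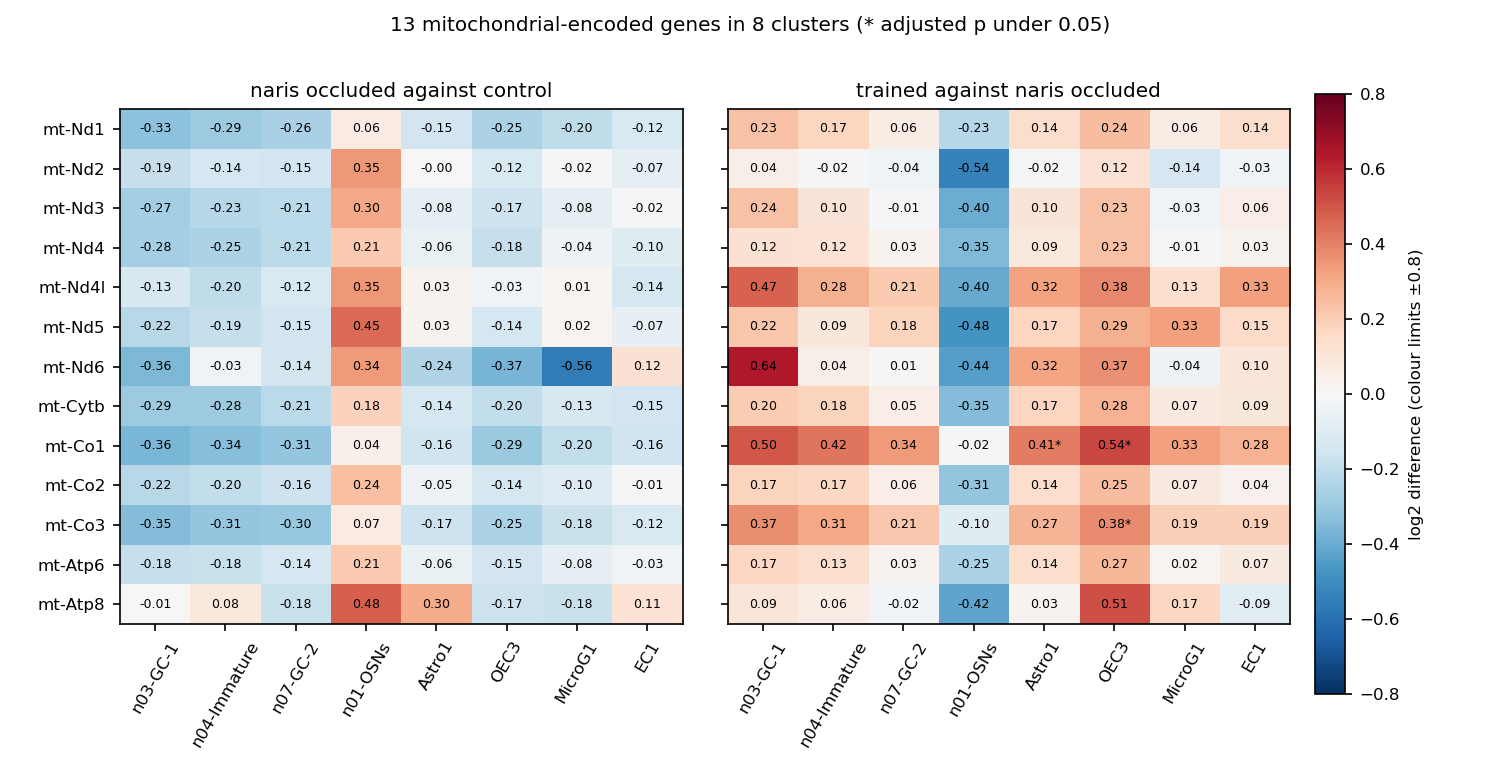
Log2 difference of the 13 mitochondrial-encoded genes (y axis) in 8 clusters (x axis) for naris occluded against control (left) and trained against naris occluded (right), red higher and blue lower in the first-named group, with an asterisk at an adjusted p under 0.05. On the normalised scale used here, all 13 genes in n01-OSNs are red on the left and blue on the right. The only asterisks are at mt-Co1 in Astro1 and OEC3 and mt-Co3 in OEC3.

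Between trained and naris occluded, 3 tests passed, all of mitochondrial-encoded cytochrome c oxidase genes. They were 3 of 104 tests, against 0.189% of all tests in this contrast, and of the 679 nuclear-encoded tests 0 passed (0 by DESeq2). An unadjusted p under 0.05 was reached by 31 mitochondrial-encoded (29.8%) and 36 nuclear-encoded tests (5.3%), against 8% of all tests. With the replicate number, and so the sex of the pool, as a block, 1 of the 3 calls was kept, mt-Co1 in OEC3 (adjusted p = 0.00286, edgeR). The adjusted p was then 0.13 for mt-Co1 in Astro1 and 0.0775 for mt-Co3 in OEC3. In OEC3, where 0.277% of all genes tested were called, mt-Co1 had 27074 and 25086 normalised CPM in control, 22524 and 20016 in naris occluded, and 32485 and 29167 in trained. The groups did not overlap and trained was highest. The log2 difference of trained from naris occluded was 0.54 ± 0.10 (SE, adjusted p = 0.00114, edgeR), 0.49 (adjusted p = 0.184) in cells with at least 1000 UMIs and 0.53 (adjusted p = 0.227) when only these 4 libraries were fitted.

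mt-Co3 rose as well in OEC3. It had 42397 and 40192 normalised CPM in control, 36215 and 33054 in naris occluded, and 47399 and 42680 in trained. The naris occluded libraries again lay below the rest (log2 difference 0.38 ± 0.09, adjusted p = 0.0422, edgeR, and 0.78 by DESeq2). The difference was 0.34 (adjusted p = 0.52, edgeR) in cells with at least 1000 UMIs and 0.37 (adjusted p = 0.416, edgeR) when only these 4 libraries were fitted. In Astro1, with 0.197% of all genes called, mt-Co1 had 16743 and 17647 in control, 15091 and 15735 in naris occluded, and 22606 and 18388 in trained, with trained replicate 1 well above the other (log2 difference 0.41 ± 0.08, adjusted p = 0.0393, edgeR). Without trained replicate 1 the difference was 0.26 (adjusted p = 0.234), and without naris occluded replicate 1 or 2 the adjusted p was 0.422 or 0.342 (edgeR, and 0.291 by DESeq2 on all libraries). For mt-Co3 in OEC3 the adjusted p was 0.235 without trained replicate 1, and 0.145 or 0.189 without control replicate 1 or 2 (edgeR).

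Other values moved with these calls. Malat1, a nuclear RNA used as a sign of RNA quality, fell in trained OEC3 against naris occluded (24175 and 20466 normalised CPM against 30753 and 50147, log2 difference -0.86, adjusted p = 1.08e-05, edgeR). It also fell there against control, where it had 40759 and 45955 (log2 difference -0.96, adjusted p = 1.18e-06, edgeR). The summed level of 4 sensory neuron markers in OEC3 was 1552 and 1586 CPM in trained, 1247 and 1075 in control, and 1166 and 729.7 in naris occluded, so trained was highest and the other groups overlapped. In Astro1 Malat1 had 68365 and 78634 normalised CPM in trained, 86092 and 86018 in naris occluded and 95883 and 99324 in control, without overlap, and it fell in trained against control (log2 difference -0.41, adjusted p = 0.00132, edgeR). The marker sum in Astro1 was 506 and 246 in trained and 333 and 310 in naris occluded, which overlap. In all, 10 of the 18 lists differed without overlap between trained and naris occluded in OEC3 and 7 in Astro1. In OEC3 the red blood cell markers summed to 39.1 and 58.9 CPM in trained against 229 and 193 in naris occluded, the cluster's own ensheathing cell markers to 14131 and 15248 against 16270 and 17663, and the granule and periglomerular markers to 341 and 335 against 288 and 185. In Astro1 the red blood cell markers summed to 49.0 and 59.6 against 190 and 654, and the 11 genes induced by dissociation to 194 and 188 against 222 and 304. Over the 8 clusters, 15 of 56 tests of the latter genes had an unadjusted p under 0.05 in this contrast, against 8% of all tests. The part of any of these in the mt-Co1 and mt-Co3 differences was not tested.

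The remaining mitochondrial genes mostly had the direction of mt-Co1. Higher in both trained than in both naris occluded libraries were 31 of 104 mitochondrial-encoded tests (29.8%) and 124 of 679 nuclear-encoded ones (18.3%), against 18.4% of all tests. Only the former share was above that of all tests, and its tests are not independent, as they share a genome and the libraries. In OEC3 all 13 mitochondrial-encoded genes were higher in trained, with a median log2 difference of 0.28, and 70 of 85 nuclear ones, with a median of 0.20. In n01-OSNs all 13 were lower on the normalised scale, with a median of -0.35 (-0.284 by DESeq2). Of these, 11 did not overlap, against 20.2% of all genes tested there that were lower without overlap. By plain UMI totals mt-Co1 was not lower in trained. Of the 18 lists, 8 differed there without overlap, 6 lower and 2 higher in trained. The sensory neuron markers (14480 and 17852 CPM against 20279 and 26060) were lower and the genes induced by dissociation (264 and 189 against 162 and 160) higher. The part of any of these in the n01-OSNs differences was not tested. By share, 16 of 38 whole-bulb clusters were higher in both trained than in both naris occluded libraries, and N5 and N11 were lower. OEC3 was the only ensheathing cluster among the 16, without OEC1, OEC2, OEC4 and OEC5.

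mt-Co1 also differed relative to the other genes of its genome. Its part of the mitochondrial-encoded UMIs was higher in both trained than in both naris occluded libraries in all 8 clusters, and higher than in both controls in 7. In n01-OSNs, where its level by plain UMI totals differed little between groups, the part was 18.1% and 17.3% in control, 17.0% and 15.8% in naris occluded, and 19.2% and 18.5% in trained. mt-Cytb had a smaller part in both trained libraries than in both controls and than in both naris occluded libraries in 8 of 8 clusters. mt-Nd4 had a smaller part in trained than in naris occluded in 8 of 8, and mt-Nd1 a smaller part in trained than in control in 7 of 8. Between naris occluded and control, mt-Co2 had a larger part in 8 of 8 clusters, and mt-Co3 a smaller one in 7 of 8. These parts come from the same libraries in each cluster and carry no test. They are parts of one total, so a larger part of mt-Co1 leaves smaller parts for other genes. The genes named are those that differed in the most clusters.

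Between trained and control, the members gave no call. edgeR called 0 of 104 mitochondrial-encoded and 0 of 679 nuclear-encoded tests, where 0.105% of all tests were called, and DESeq2 called 0 of each. An unadjusted p under 0.05 was reached by 8 (7.7%) and 14 (2.1%), against 6.57% of all tests. The mitochondrial-encoded members were evenly split (50 higher, 54 lower), and 440 of the 679 nuclear ones were lower in trained. The lowest p belonged to Atp5g1, a subunit c gene, in EC1, with 396 and 363 normalised CPM in control and 273 and 267 in trained (log2 difference -0.49 ± 0.14, adjusted p = 0.191, edgeR). Both trained libraries there were below the other 4, whose naris occluded values were 310 and 311.

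Genes around the pathway gave no call either. Over the 8 clusters and 3 contrasts edgeR called 0 tests of the 16 citric acid cycle genes, the 17 glycolysis genes, the 14 measured genes of mitochondrial DNA upkeep and transcription, the 7 regulators, the 25 electron carrier and other assembly genes, the 77 mitochondrial ribosome genes and the 11 genes induced by dissociation. Between naris occluded and control, an unadjusted p under 0.05 was reached in 1 of 112, 7 of 116, 2 of 51, 0 of 31, 5 of 150, 8 of 525 and 9 of 56 tests respectively. Over all tests it was 4.75%, which the dissociation genes exceeded most. They had 14 of 56 between trained and control (6.57% of all tests) and 15 of 56 between trained and naris occluded (8% of all tests). In the last contrast the regulators had 5 of 31, and the other lists lay near or below the share of all tests. The median log2 difference of naris occluded from control was -0.04 for the citric acid cycle, -0.09 for glycolysis and -0.02 for the mitochondrial ribosome. It was -0.14 and -0.08 for the mitochondrial-encoded and nuclear-encoded members. For the genes induced by dissociation, such as Fos and Jun, it was 0.17.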

How the data were processed

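Single cells of olfactory bulb were sequenced in 6 libraries. Per the labels (the submitters' processing notes), the authors used Cell Ranger 2.0.0 and Seurat 2.2.1 with mm10. The deposited table holds raw counts, UMIs per gene and barcode as the authors' pipeline gave them, and the annotation the authors deposited holds each cell's cluster, library and mitochondrial fraction. That fraction was recomputed and agreed within 0.5 points in all 51426 annotated cells. The name prefixes of the trained libraries are swapped against the annotation's library label, which was used. The replicate number and the sex given for each trained library therefore rest on that label. 1123 barcodes without a cluster were left out, and no doublet caller was run. Counts were summed per library and cluster and tested with edgeR 4.0.16 (TMM, filterByExpr, all 6 libraries in a fit, quasi-likelihood) in R 4.3.3, after a test on simulated data. DESeq2 1.42.0, a replicate block and other settings were alternatives. Normalised CPM use TMM factors, and levels by cluster plain UMI totals. Members and gene lists were chosen with earlier results of these data known. Named genes were all mitochondrial-encoded members, the 2 leading subunits of each complex, isoform pairs, called members and cluster-restricted members, and those with the lowest p were named after their values were seen. Each library is a pool of animals, so p-values measure the spread between 2 pools a group. Libraries held 11841160 to 17065083 UMIs.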

Additional observations from a re-analysis of the deposited data

Results flagged for a closer look

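The change of the mitochondrial-encoded share with naris occlusion took opposite directions in different clusters. Both naris occluded libraries lay above both controls in n01-OSNs, by 2.12 percentage points in the means, and in the mitral and tufted cells n15-M/TC-1, by 1.58. The latter cluster had as few as 6 cells in a library, and there both trained libraries lay above both controls too. The naris occluded libraries lay below both controls in n07-GC-2 (-1.8 points), n04-Immature (-1.45) and OEC3 (-2.07). The difference between clusters was not tested on the shares. The test of single genes between n01-OSNs and 7 other clusters, described above and chosen after seeing the data, called none of 91 (smallest adjusted p = 0.997, edgeR), and n15-M/TC-1 was too small to be tested. The n01-OSNs libraries had median depths of 846 and 824 UMIs per cell in control and 977.5 and 697 in naris occluded.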

How the results depend on the processing

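The mitochondrial-encoded calls between trained and naris occluded, 3 in the fit reported, were 1 with the replicate block, 1 with DESeq2, 10 with no filter on low counts and 0 in fits of these 4 libraries only. Leaving out 1 library gave 1 to 22 calls, the highest without trained replicate 2 and the lowest without trained replicate 1, with 9 without naris occluded replicate 1. Calls against control were 0 to 7 for naris occluded (6 without trained replicate 1, 7 without trained replicate 2, 4 without naris occluded replicate 1, 2 without naris occluded replicate 2) and 0 to 4 for trained (4 without trained replicate 2), and with no filter on low counts 3 and 1. Nuclear-encoded calls between trained and naris occluded were 0 to 7 (7 without naris occluded replicate 1, all in OEC3, and 1 without either control) and 1 with no filter, and 0 in all settings of the other contrasts. The cause was not tested. mt-Co1 in OEC3 kept its call with the replicate block and DESeq2, while mt-Co1 in Astro1 (adjusted p = 0.13 with the block) and mt-Co3 in OEC3 (0.0775) lost theirs (edgeR). Replicate numbers name the sex of a pool. Same-numbered libraries had correlations of deviations of 0.052 to 0.187, over 0.1 for every pair of groups in Astro1 and n04-Immature only, and the block changed the call of no other member.

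Mitochondrial-encoded shares were, for control, naris occluded and trained, 11.7%, 9.97% and 11.95% as reported, 15.0%, 12.2% and 15.3% as means over cells, and 9.72%, 8.86% and 9.60% in cells with at least 1000 UMIs. With the same mix of clusters control became 14.02%, naris occluded 12.7% and trained 13.94%, which put trained below control. Nuclear-encoded shares were 3.52%, 3.35% and 3.41%, and 3.99%, 3.73% and 3.87% of the other UMIs. With the same mix they were 3.65% in control and 3.47% in naris occluded, and 3.62% in control as a mean over cells. Leave-one-out values of these shares were the single libraries' values. Naris occluded stayed below control throughout. The 16 clusters higher in both trained than in both naris occluded libraries were 17 to 35 with 1 library left out (17 without trained replicate 1, 28 without naris occluded replicate 2 and 35 without trained replicate 2). The direction of the median member was the same under 5 scalings and cell choices in 8 of 8 clusters for the mitochondrial-encoded members in every contrast and for the nuclear-encoded ones between naris occluded and control, and in 7 of 8 for the latter in both trained contrasts (n01-OSNs against naris occluded, 0.013 reported and -0.007 in cells with at least 1000 UMIs). The limit to 20% mitochondrial UMIs was not run in n01-OSNs, where 1 library kept too few cells. With 2 pools a group, differences may have gone undetected, and the smallest detectable difference was not measured.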

Other observations

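Barcodes that the annotation put in no cluster, 111 to 262 a library, had mitochondrial-encoded shares of 8.64% and 11.1% in control, 10.6% and 9.52% in naris occluded, and 11.2% and 9.01% in trained, on median depths of 2134 to 2664 UMIs. The trained and control values overlap, and no test was run.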
